A study of Mus musculus with 39 samples.

Results

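Hedgehog signalling was followed through 9 genes, measured by RNA-seq in the gubernaculum and testis of mice. They are the ligand genes Dhh, Ihh and Shh, the receptor gene Ptch1, the signal transducer gene Smo, the transcription factor genes Gli1, Gli2 and Gli3, and Hhip, which encodes a protein that binds and holds back the ligands. The 9 genes were chosen by name, and each of them is among the 21561 Ensembl genes listed in both deposited count tables. The gubernaculum is the cord that draws the testis towards the scrotum, and INSL3 is the hormone of Leydig cells that acts on it.

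The 39 libraries were from male C57BL/6J mice that received no drug or surgery. WT mice were compared with INSL3-KI mice, which are homozygous for minke whale INSL3 cDNA placed at the mouse Insl3 locus and have lost the neomycin cassette by a cross to Cre females, and with INSL3-KO mice, whose construction is not given in the sources used here. Gubernaculum was taken at P8 (postnatal day 8) from all 3 genotypes and at P23 from WT and INSL3-KI mice, and testis at P8 and P23 from all 3 genotypes and at P40 from WT and INSL3-KI mice, with 3 biological replicates in each of the 13 groups. Libraries held between 29861447 and 45260372 counts (median 36944626).

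In Hedgehog signalling a secreted ligand binds Patched-1, the product of Ptch1, and so releases Smoothened, the product of Smo, whose activity lets GLI transcription factors switch on target genes. Ptch1, Gli1 and Hhip are themselves targets, and their RNA is widely read as a record of the pathway's output. In the testis the known source of ligand is the Sertoli cell, which makes desert hedgehog, and Leydig and peritubular cells respond to it. Sonic hedgehog is made by epithelia of the urogenital tract and signals to the mesenchyme around them, where smooth muscle forms.

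Some libraries limit what the comparisons can show. The INSL3-KO libraries and those of WT testis at P23 stand in the second of 2 deposited tables and the other 27 in the first, so in 6 of the 11 comparisons of genotypes the table and the genotype cannot be told apart: those of P8 INSL3-KO tissue with WT or INSL3-KI, and those of P23 INSL3-KI testis with WT or INSL3-KO. The gene models of 2 members also differed between the tables. Counts and FPKM (fragments scaled by the authors to the length of the transcript and the depth of the library) together imply a transcript of 9370 bases for Hhip in the first table and of 1292 bases in the second, and of 4346 and 2492 bases for Dhh, while the ratio of the implied lengths lay between 0.922 and 1.04 for the other 7 members. Across the tables, counts of Hhip and Dhh are therefore not like for like, and FPKM is set beside them. Insl3 itself, the targeted gene, had 2922, 3524 and 2722 counts in P8 WT testis, 33, 15 and 26 in INSL3-KI testis and 906, 804 and 613 in the libraries labelled INSL3-KO, which were thus not free of it. In P23 testis it had between 20844 and 25238 counts in WT, between 52 and 84 in INSL3-KI and 0, 5 and 0 in INSL3-KO, and in P40 testis between 20183 and 29799 in WT and between 443 and 511 in INSL3-KI. In P8 gubernaculum it had between 25 and 87 counts in WT and 0 in every INSL3-KI and INSL3-KO library, and at P23 between 9 and 27 in WT and 12, 28 and 0 in INSL3-KI. Spermatid markers summed to between 10500 and 12700 CPM (counts scaled to library size, with TMM factors within a tissue) in P23 WT testis, above the 6920 to 8550 CPM of P40 WT testis.

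Shh was the member that differed most between genotypes, and it did so in P8 gubernaculum. Its RNA was all but missing from WT gubernaculum, with 2, 0 and 0 counts in the 3 libraries. INSL3-KI gubernaculum had 860, 1376 and 1060 counts, or 21.8, 38.7 and 31.0 CPM. INSL3-KO gubernaculum had 1090, 1309 and 1306 counts, or 28.5, 29.2 and 29.9 CPM. All 6 mutant libraries thus lay far above the WT libraries. Shh rose at least 327-fold in INSL3-KI and at least 314-fold in INSL3-KO, folds that are lower bounds set against 3 counts in each WT library (edgeR adjusted p = 2.5e-06 and 2.4e-06). Between INSL3-KI and INSL3-KO, whose libraries overlapped, the log2 difference of 0.07 was within its SE of 0.19 (edgeR adjusted p = 0.77).

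**Figure D1:**
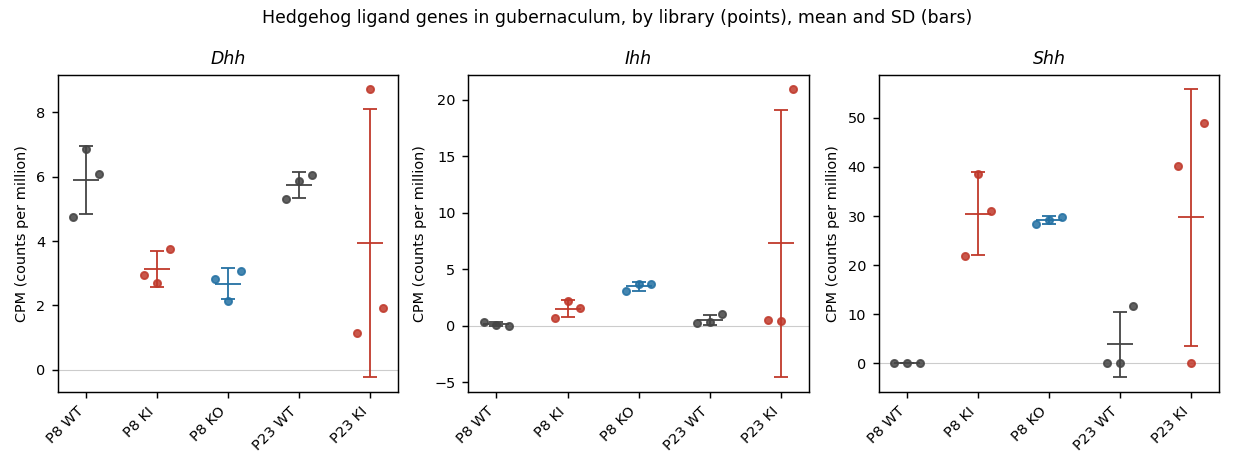
Levels of the ligand genes Dhh, Ihh and Shh in gubernaculum, in CPM on the vertical axis, for the 5 groups on the horizontal axis. Each point is a library, and the bars give the mean and SD of 3 libraries. Shh lies at or near 0 in P8 WT and between 21.8 and 38.7 CPM in P8 INSL3-KI, while at P23 single libraries of both genotypes stand apart from their group.

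Ihh, the gene of a ligand best known from growing cartilage and gut, had 11, 3 and 0 counts in P8 WT gubernaculum, 28, 79 and 52 in INSL3-KI and 116, 167 and 162 in INSL3-KO. These are low counts, and the groups did not overlap. The log2 fold change was 3.36 in INSL3-KI (SE 0.94, edgeR adjusted p = 0.017), which did not pass the threshold used here, an adjusted p under 0.01 with a fold change of at least 2. In INSL3-KO it was 4.55 (SE 0.81, edgeR adjusted p = 0.0019) and passed. Without WT replicate 1, the WT library with most Ihh counts, the INSL3-KI value passed too (log2 fold change 4.93, edgeR adjusted p = 0.0075). The INSL3-KO call was lost without WT replicate 2 or without INSL3-KO replicate 2 (edgeR adjusted p = 0.014 and 0.012).

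Dhh, the ligand of the testis, was a minor transcript in gubernaculum. WT libraries held 4.75, 6.87 and 6.07 CPM and INSL3-KI libraries 2.94, 2.70 and 3.77 CPM, without overlap. The log2 fold change of -0.87 did not pass (SE 0.25, edgeR adjusted p = 0.017). INSL3-KO libraries held 2.82, 2.14 and 3.07 CPM, a log2 fold change of -1.15 (SE 0.24, edgeR adjusted p = 0.0040) that passed. That call was lost without any one of WT replicates 2 and 3 and INSL3-KO replicates 1 and 2 (edgeR adjusted p from 0.015 to 0.018), and it rests on the counts, which come from unlike gene models, since in FPKM the INSL3-KO libraries (1.13, 0.864 and 1.23) overlapped those of WT (0.958, 1.40 and 1.21), and with limma on log2(FPKM + 1) the difference was -0.08 (limma adjusted p = 0.54).

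The receptor gene Ptch1 and the inhibitor gene Hhip rose with Shh. Ptch1 had 17.5, 25.3 and 29.6 CPM in P8 WT gubernaculum and 92.7, 100.1 and 89.3 CPM in INSL3-KI. The lowest INSL3-KI library was above the highest WT library, and the log2 fold change was 2.002 (SE 0.19, edgeR adjusted p = 5.4e-05). In INSL3-KO it had 63.7, 57.1 and 62.5 CPM, between the other groups, with a log2 fold change against WT of 1.33 (SE 0.18, edgeR adjusted p = 0.00055). INSL3-KI exceeded INSL3-KO by 0.63 on the log2 scale (SE 0.07, edgeR adjusted p = 0.00029), under the fold-change threshold.

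Hhip had 1.39, 2.13 and 2.25 CPM in P8 WT gubernaculum and 41.2, 33.2 and 41.9 CPM in the INSL3-KI libraries, a rise of 4.37 on the log2 scale (SE 0.21, edgeR adjusted p = 1.8e-06). Apart from Shh, no member differed more between these genotypes. INSL3-KO libraries had 14.9, 14.5 and 15.8 CPM, a log2 fold change of 2.96 against WT (SE 0.21, edgeR adjusted p = 2.3e-05). Which mutant had more Hhip depended on the scale, since the counts were higher in INSL3-KI (log2 fold change 1.37, SE 0.11, edgeR adjusted p = 6.1e-05) and FPKM was higher in INSL3-KO, with 5.10, 4.06 and 5.15 in INSL3-KI against 11.8, 12.0 and 11.9 in INSL3-KO (log2 difference -1.17 with limma on log2(FPKM + 1), limma adjusted p = 9.2e-05). Both scales put INSL3-KO above the 0.132 to 0.210 FPKM of WT.

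The promoters of these genes are shown because the RNA of both moved with that of Shh. Ptch1 (ENSMUSG00000021466) lies on the minus strand of chr13:63508328-63573598 and Hhip (ENSMUSG00000064325) on the minus strand of chr8:79965851-80058006 in GRCm38, by the GENCODE M21 annotation. The 250 bases before each transcription start, from RefSeq on GRCm38.p6, read 5′ to 3′ on the gene's strand as follows, with every GC box (GGGCGG or, on the other strand, CCGCCC) in capitals.
Ptch1, chr13:63565736-63565985, minus strand: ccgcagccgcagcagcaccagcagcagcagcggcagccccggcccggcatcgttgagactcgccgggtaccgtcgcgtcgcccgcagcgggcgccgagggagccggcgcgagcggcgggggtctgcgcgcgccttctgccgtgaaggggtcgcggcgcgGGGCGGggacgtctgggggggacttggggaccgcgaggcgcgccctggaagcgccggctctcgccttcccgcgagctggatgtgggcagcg
Hhip, chr8:80058009-80058258, minus strand: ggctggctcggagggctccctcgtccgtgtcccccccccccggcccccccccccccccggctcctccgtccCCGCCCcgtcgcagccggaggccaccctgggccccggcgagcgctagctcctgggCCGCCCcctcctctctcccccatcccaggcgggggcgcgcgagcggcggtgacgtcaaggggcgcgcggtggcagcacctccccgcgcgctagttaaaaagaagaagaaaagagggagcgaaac
The GC box of Ptch1 lies at -91 to -86 from the start, and those of Hhip lie at -179 to -174 and at -124 to -119. The RefSeq start used for Ptch1 lies within the longer GENCODE gene. Of the 32851 promoters in that table (250 bases before to 50 after a start), 35.7% hold a GC box on either strand, as do 6 of the 7 member promoters it lists, those of Ihh, Gli2, Hhip, Gli3, Ptch1 and Dhh but not Smo. The GLI consensus GACCACCCA, or TGGGTGGTC on the other strand, is in 0.253% of all promoters and in 0 of these 7. The 2 motifs do not overlap.

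The GLI genes and Smo did not move as a block in P8 gubernaculum. Gli1, the GLI gene whose own transcription depends most on the pathway, had 15.3, 22.6 and 22.9 CPM in WT and 46.4, 59.8 and 51.4 CPM in INSL3-KI. Every INSL3-KI library was above every WT library (log2 fold change 1.41, SE 0.18, edgeR adjusted p = 0.00034). INSL3-KO libraries, with 18.2, 19.1 and 17.1 CPM, lay within the range of WT (log2 fold change -0.17, SE 0.17, edgeR adjusted p = 0.40). Compared directly, INSL3-KI had more Gli1 than INSL3-KO (1.54 on the log2 scale, SE 0.11, edgeR adjusted p = 3.6e-05), without overlap of the libraries. With all 15 gubernaculum libraries in 1 fit the difference was 1.54 with an SE of 0.43 and did not pass (edgeR adjusted p = 0.014). INSL3-KI and INSL3-KO stand in different tables, so table and genotype cannot be told apart here. The ratio of the implied lengths of Gli1 was 0.922.

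Gli3, which acts largely as a repressor where no ligand is present, had 46.9, 65.3 and 68.3 CPM in WT, 37.3, 34.1 and 33.4 CPM in INSL3-KI and 34.2, 32.7 and 35.3 CPM in INSL3-KO. The mutant libraries were all under the lowest WT library. The log2 fold changes of -0.75 (SE 0.15, edgeR adjusted p = 0.0036) and -0.83 (SE 0.15, edgeR adjusted p = 0.0018) had small p-values and stayed under the fold-change threshold. Gli2, the main activator of the family, ranged from 31.7 to 44.0 CPM in WT, from 30.5 to 36.3 CPM in INSL3-KI and from 24.9 to 26.9 CPM in INSL3-KO, with log2 fold changes of -0.21 (SE 0.15, edgeR adjusted p = 0.27) and -0.60 (SE 0.13, edgeR adjusted p = 0.0053). Smo ranged from 121.5 to 151.0 CPM in WT and from 128.0 to 153.7 CPM in INSL3-KI (log2 fold change 0.06, SE 0.12, edgeR adjusted p = 0.69), and from 106.9 to 120.6 CPM in INSL3-KO (-0.32, SE 0.10, edgeR adjusted p = 0.027).

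**Figure D2:**
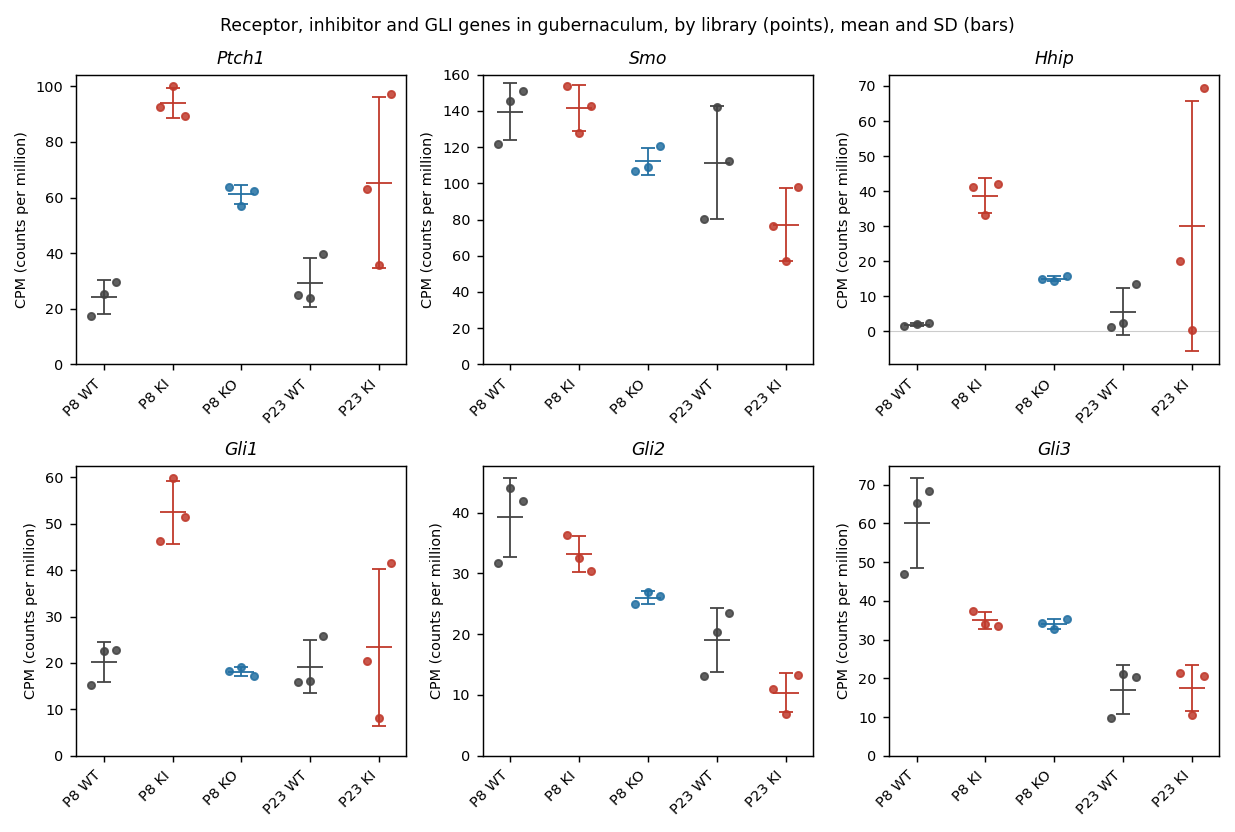
Levels of Ptch1, Smo, Hhip, Gli1, Gli2 and Gli3 in gubernaculum, in CPM on the vertical axis, for the 5 groups on the horizontal axis. Points are libraries, and bars give the mean and SD of 3 libraries. Ptch1 and Hhip are higher in both P8 mutants than in WT and Gli1 in INSL3-KI alone of the 2, where it lies between 46.4 and 59.8 CPM; Hhip of INSL3-KO comes from a shorter gene model than that of the other groups.

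By count, 4 of the 9 members were called higher in P8 INSL3-KI gubernaculum (Shh, Ptch1, Gli1 and Hhip) and 0 lower, where 14.4% of all 15500 genes tested were called higher and 9.7% lower. In INSL3-KO, compared with WT, 4 members were called higher (Shh, Ihh, Ptch1 and Hhip) and 1 lower (Dhh), where 15.5% and 15.2% of 15609 genes were called so. Shh and Ihh, with few or no WT counts, passed the filter on low counts only through the mutant libraries, so higher was their only possible call. Gli1 and Hhip were the 2 called between the mutants, both higher in INSL3-KI, where 11.9% of 15642 genes were called higher and 10.5% lower. The median log2 fold change of the members was 1.41 in INSL3-KI against 0.02 over all genes, and -0.17 in INSL3-KO against 0.03. With all 15 gubernaculum libraries in 1 fit, which takes in the variable P23 libraries, only Ptch1 was still called in INSL3-KI and 2 members in INSL3-KO, with log2 fold changes close to those above. In bulk tissue, fewer cells of a type and less RNA per cell cannot be told apart.

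Markers of other cell types moved with these genotypes. A list of duct and tubule epithelium genes (Epcam, Cdh1, Krt8, Krt18, Pax2 and Pax8), all 6 detected in each P8 group, summed to between 19.6 and 49.5 CPM in P8 WT gubernaculum, between 859 and 1050 CPM in INSL3-KI and between 506 and 556 CPM in INSL3-KO. A list of 6 epididymal genes (Lcn8, Lcn9, Crisp1, Rnase10, Adam7 and Spint4) summed to between 0.537 and 0.756 CPM in WT, where 5 of the 6 were undetected (at most 3 counts), between 618 and 1560 CPM in INSL3-KI and between 991 and 1110 CPM in INSL3-KO. Nearly all of that sum was Crisp1, a secreted protein of the epididymis, and Lcn9 and Spint4 were undetected in both mutants. Smooth muscle markers summed to between 3510 and 4020 CPM in WT, between 16000 and 20300 CPM in INSL3-KI and between 7680 and 8180 CPM in INSL3-KO. Lists of cells known to make Dhh did not move alike. Sertoli markers summed to between 538 and 565, 1350 and 3090, and 1670 and 3620 CPM in WT, INSL3-KI and INSL3-KO. Of the 14 genes of that list, Fshr, Cst12 and Defb19 were undetected in INSL3-KI, and all 14 were detected in WT and INSL3-KO. In P23 WT gubernaculum the list still summed to between 691 and 732 CPM with Rhox5, Rhox8, Fshr, Cst9, Cst12 and Defb19 undetected. Schwann cell markers summed to between 464 and 555, 235 and 277, and 446 and 475 CPM. White fat markers summed to between 89.0 and 101, 762 and 1040, and 2030 and 2270 CPM. Skeletal muscle markers were at 25600 to 25800 CPM in WT, 712 to 1270 CPM in INSL3-KI and 5910 to 6370 CPM in INSL3-KO, and fibroblast markers at 42800 to 45900, 17200 to 25700 and 27700 to 29500 CPM. The part of these cell types in the members' values was not tested.

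In gubernaculum the epididymal list and Shh went together library by library. Of the 15 gubernaculum libraries, the 9 with more than 3 Shh counts had between 369 and 2221 of them and between 618 and 7190 CPM of the epididymal list. The other 6 had at most 2 Shh counts and at most 1.97 CPM of the list. In those 9 libraries Crisp1 made up between 95.9% and 100% of the sum. In P8 testis, split at 50 Shh counts after the values were seen, the 6 libraries with between 98 and 205 Shh counts had between 29.8 and 91.0 CPM of the list and the 3 with between 10 and 14 counts had at most 0.405 CPM. In P23 and P40 testis, Shh had at most 18 counts in any of 15 libraries and the list at most 10.9 CPM, and at these low levels they did not go together: the 3 P40 WT libraries had 0 Shh counts with 6.03 to 7.13 CPM of the list, and P23 INSL3-KO replicate 1 had 12 counts with 0.32 CPM.

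**Figure D3:**
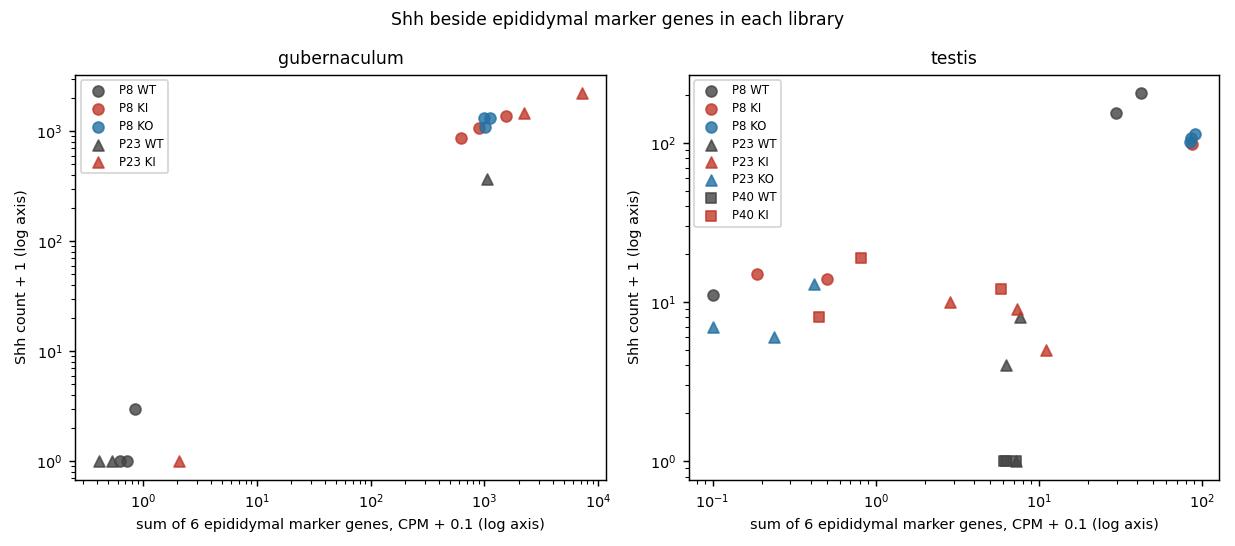
Shh counts (plus 1, log axis) against the summed level of 6 epididymal marker genes (CPM plus 0.1, log axis), for the 15 gubernaculum libraries on the left and the 24 testis libraries on the right. Each point is a library, coloured by genotype and shaped by age. In gubernaculum 9 libraries with 369 or more Shh counts lie at 618 CPM or more of the markers and the other 6 at 1.97 CPM or less.

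Further genes of the pathway were read from 4 lists of 5, 9, 15 and 13 genes, covering the release of ligands, co-receptors, regulators inside the cell and other target genes. Of the target genes, 6 of the 11 tested were called higher in P8 INSL3-KI gubernaculum and 0 lower, beside 14.4% and 9.7% of all genes. Among those 6, Foxf2 and Foxl1 passed the filter on low counts only through the INSL3-KI libraries, so higher was their only possible call. Foxf2, a forkhead factor of mesenchyme under Hedgehog control in the gut, had 0 counts in every WT library and 66.8, 53.1 and 65.3 CPM in INSL3-KI and 19.97, 21.8 and 23.4 CPM in INSL3-KO. Foxl1, another forkhead gene, had at most 3 counts in WT and a mean of 5.11 CPM in INSL3-KI. Foxf1 rose to 5.33 ± 1.74 CPM in INSL3-KI from 1.93 ± 0.485 CPM in WT (SD, n = 3, edgeR adjusted p = 0.0059). The cell-cycle gene Ccnd1 rose by 1.08 on the log2 scale (SE 0.19, edgeR adjusted p = 0.0018), and Foxd2 and Sfrp1 were the other 2 called. The median of the list was 1.07.

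Co-receptor genes were called in both directions in INSL3-KI gubernaculum. Cdon and Boc, whose products present ligand to Patched-1, fell by 1.27 and 1.03 on the log2 scale (edgeR adjusted p = 0.0011 and 7.8e-05), and Gpc3 was also called lower. Lrp2, an endocytic receptor of epithelia, rose from 2.65, 10.9 and 7.90 CPM to 29.7, 79.3 and 47.0 CPM (log2 fold change 2.90, SE 0.53, edgeR adjusted p = 0.0021). Among the 15 regulators inside the cell, Prkaca and Prkar1a, subunits of protein kinase A, were called lower and Gpr161 higher, and Prkaca fell from 629 ± 63.8 CPM to 83.2 ± 7.79 CPM (SD, n = 3, edgeR adjusted p = 1.2e-06). Of the 5 genes for release, 0 were called in INSL3-KI, and Disp1, Scube1 and Scube2 were called lower in INSL3-KO (medians -0.58 and -1.11). In INSL3-KO, 8 of the 41 genes tested over the 4 lists were called lower and 5 higher, against 6 and 8 of 40 in INSL3-KI, where 15.2% and 15.5% of all genes in INSL3-KO and 9.7% and 14.4% in INSL3-KI were called so.

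At P23 the gubernaculum libraries of a genotype differed so much that 0 of the 9 members were called between INSL3-KI and WT, where 0.212% of 15082 genes were called higher and 2.35% lower. In the same test 2 members, Ptch1 and Gli2, reached an unadjusted p under 0.05, beside 5063 of the 15082 genes. Limma and DESeq2 also called 0 members. Shh had 0, 0 and 369 counts in WT and 1458, 0 and 2221 in INSL3-KI. Hhip had 28, 74 and 429 counts in WT and 729, 9 and 3150 in INSL3-KI, and Ihh had 6, 9 and 32 against 18, 12 and 950. WT replicate 3 was thus the highest WT library for all 3 genes and INSL3-KI replicate 2 the lowest INSL3-KI library. These were also the libraries that stood apart in the duct epithelium list, with 57.2, 76.0 and 230 CPM in WT and 1160, 2.95 and 1840 CPM in INSL3-KI. INSL3-KI replicate 2 in addition held 15000 CPM of white fat markers, against 6380 and 499 CPM in the other two and at most 152 CPM in WT.

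Ptch1 had 24.9, 23.7 and 39.7 CPM in P23 WT gubernaculum and 63.0, 35.8 and 97.1 CPM in INSL3-KI (log2 fold change 1.16, SE 0.41, edgeR adjusted p = 0.11). Gli1 had 15.8, 16.1 and 25.7 CPM against 20.4, 8.08 and 41.6 CPM (0.30, SE 0.59, edgeR adjusted p = 0.75). For Shh the log2 fold change ran from 2.36 to 13.01 and for Hhip from 0.83 to 4.12 when each library was left out in turn. The change in the INSL3-KI effect from P8 to P23 passed the test for 0 of the 9 members (0.0874% of 16016 genes were called higher at P23 and 0.194% lower). At an unadjusted p under 0.05 there were 0 members, beside 4094 of the 16016 genes. For Shh that difference was -7.38 with an SE of 3.62 (edgeR adjusted p = 0.23), too wide to say whether the effects were alike. Between P8 and P23 in WT gubernaculum, 1 of the 7 members tested was called, Gli3, which fell by 1.82 on the log2 scale (SE 0.30, edgeR adjusted p = 0.0050), where 4.34% of 14941 genes were called lower and 6.17% higher. That call was lost when any one of the P8 WT libraries or P23 WT replicate 2 was left out (edgeR adjusted p from 0.011 to 0.024). Over all genes, those fits called between 154 and 437 lower and between 135 and 599 higher, against 649 and 922 with every library.

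In WT mice at P8, 5 of the 9 members were called lower in gubernaculum than in testis and 0 higher, where 14.3% of 15624 genes were called lower and 14.1% higher. Per length of transcript, Dhh and Smo were the highest members in P8 WT testis, at 60.3 ± 11.3 and 59.5 ± 3.30 FPKM, followed by Ptch1 (32.7 ± 0.967), Gli1 (20.1 ± 2.01), Hhip (6.799 ± 1.08), Gli3 (6.55 ± 0.769) and Gli2 (5.43 ± 1.13; SD, n = 3). The ranges of Dhh and Smo overlapped, as did those of Hhip, Gli3 and Gli2. In P8 WT gubernaculum Smo led at 31.7 ± 3.39 FPKM, Gli3, Gli2 and Gli1 followed at between 3.25 and 7.34 FPKM per library, and Dhh was at 1.19 ± 0.223 FPKM. Dhh was lower in gubernaculum than in testis by 5.19 on the log2 scale (SE 0.21, edgeR adjusted p = 2.6e-06). Hhip, Ptch1 and Gli1 were lower by 4.77, 3.19 and 1.77 (edgeR adjusted p = 6.1e-06, 1.7e-05 and 0.00017). Shh was at least 30.5-fold higher in testis than in gubernaculum, a call lost when any one of 5 of the 6 libraries was left out, and its testis counts of 10, 154 and 205 went with 0, 29.8 and 42.3 CPM of the epididymal list. Shh passed the filter on low counts only through the testis libraries, so this was its only possible direction. Smo (-0.45), Gli2 (0.35) and Gli3 (0.44) did not pass (edgeR adjusted p = 0.013, 0.15 and 0.056). The sign for Gli2 and Gli3 depended on the scale. Their mean FPKM was slightly lower in gubernaculum, at 5.08 and 6.49 against 5.43 and 6.55 in testis, with overlapping ranges.

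The genes whose group means most resembled those of Dhh over the 9 groups of the first table were Lin28a, Gata4 and Rnd2 (Pearson r = 0.993, 0.992 and 0.991 on log2(CPM + 1), among 13631 genes). For Ptch1 they were Mme, Scap and Usp3 (0.959, 0.958 and 0.955), for Gli1 Rcan3, Zfp362 and Hapln1 (0.976, 0.966 and 0.965), and for Hhip Src, Akap5 and Dner (0.951, 0.948 and 0.943). These values describe 9 points that fall into 2 tissues.

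In P8 testis the members lay lower in INSL3-KI than in WT, and few passed the test. Smo had 188.6, 210.3 and 217.4 CPM in WT and 99.6, 65.2 and 96.9 CPM in INSL3-KI (log2 fold change -1.17, SE 0.18, edgeR adjusted p = 0.0068). Gli1 had 64.5, 78.0 and 80.9 CPM in WT and 34.0, 22.5 and 36.6 CPM in INSL3-KI (-1.19, SE 0.21, edgeR adjusted p = 0.0087). Neither group overlapped the other. Those were the 2 members of 9 called lower, with 0 called higher, where 3.25% of 15702 genes were called lower and 3.03% higher. Both calls were lost when any 1 of the 6 libraries was left out. Without INSL3-KI replicate 2 they were lost on the fold change alone, at -0.98 for Smo and -0.996 for Gli1 (edgeR adjusted p = 0.0027 and 0.0043). Without WT replicate 2 or 3 or INSL3-KI replicate 1 or 3, at most 3 of all genes were called lower and at most 11 higher. Without WT replicate 1 or INSL3-KI replicate 2, 497 and 459 were called lower and 434 and 438 higher. Gli3 (-0.93), Gli2 (-0.96), Hhip (-1.06) and Dhh (-0.70) had groups that did not overlap and did not pass (edgeR adjusted p = 0.0093, 0.012, 0.063 and 0.027). Ptch1, at 236 ± 7.72 CPM in WT and 180 ± 37.3 CPM in INSL3-KI, differed by -0.33 (SE 0.17, edgeR adjusted p = 0.17). Dhh was at 249.2, 262.3 and 185.0 CPM in WT and 152.9, 111.0 and 145.7 CPM in INSL3-KI.

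The P8 testis libraries labelled INSL3-KO had 6 members called lower than WT and 0 higher, where 8.37% of 15723 genes were called lower and 5.44% higher. Gli1, at 24.0, 23.2 and 23.3 CPM, was lower by 1.64 on the log2 scale (SE 0.10, edgeR adjusted p = 2.7e-05). Smo, Gli3 and Gli2 were lower by 1.18, 1.20 and 1.13 (edgeR adjusted p = 2.8e-05, 0.00015 and 0.0012). The log2 fold changes of Hhip and Dhh, -2.33 and -1.08, were not seen in FPKM, where Hhip was at 5.58, 7.62 and 7.20 in WT and 7.47, 7.08 and 8.00 in these libraries, and Dhh at 66.5, 67.2 and 47.3 against 54.1, 53.1 and 52.6. Ptch1, at 126.9, 131.9 and 127.1 CPM, was lower by 0.85 (SE 0.06, edgeR adjusted p = 3.7e-05), under the fold-change threshold. The comparison crosses the tables, and these are the libraries with 613 to 906 Insl3 counts. Between the P8 mutant testes edgeR called 0 of 9 members, where 2.76% of 15728 genes were called higher in INSL3-KI and 1.16% lower. At an unadjusted p under 0.05 there were 3 members, beside 7013 of the 15728 genes. DESeq2 called 1 member, Hhip, whose sign was opposite in FPKM, at -0.995 with limma on log2(FPKM + 1).

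Cell-type markers also moved among the P8 testes. Fibroblast markers summed to 6880, 11200 and 21100 CPM in WT, to between 3200 and 4940 CPM in INSL3-KI and to between 5130 and 5270 CPM in the libraries labelled INSL3-KO. Leydig markers summed to between 814 and 967, 353 and 363, and 551 and 565 CPM, and spermatocyte markers to between 41.5 and 103, 434 and 1390, and 578 and 586 CPM. Sertoli markers were at 4640 to 6110, 5710 to 6510 and 7580 to 7730 CPM. All members of these lists were detected in every P8 group, except Hsd3b6 of the Leydig list in WT. Their part in the members' values was not tested.

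At the later ages the direction in testis turned. In P40 testis 7 members were called higher in INSL3-KI than in WT and 0 lower. When scaled on Sertoli markers that direction turned for all 7, with 31 of all genes called higher and 11691 lower. Without that scaling 25.6% of 16677 genes were called higher and 22.1% lower. Dhh had 33.3, 34.8 and 31.8 CPM in WT and 93.5, 131.3 and 134.2 CPM in INSL3-KI (log2 fold change 1.90, SE 0.19, edgeR adjusted p = 0.00041). Ptch1 had 21.9, 23.1 and 25.0 CPM in WT and 81.4, 112.4 and 103.8 CPM in INSL3-KI (2.14, SE 0.18, edgeR adjusted p = 3e-04). In both genes every INSL3-KI library was above every WT library. Gli1 rose from 4.232 ± 0.4495 to 15.3 ± 1.76 CPM and Smo from 13.9 ± 3.10 to 49.5 ± 6.41 CPM (SD, n = 3, edgeR adjusted p = 0.00037 and 6e-04). Gli2, Gli3 and Hhip were called with log2 fold changes of 1.65, 1.25 and 1.46 (edgeR adjusted p = 0.0048, 0.0058 and 0.0090), and these 3 calls were lost together without WT replicate 1 or without INSL3-KI replicate 2 or 3, which left 4. Gli3 and Hhip were also lost without WT replicate 2 or 3. Ihh did not pass (0.72, SE 0.40, edgeR adjusted p = 0.14). Shh, with 0 counts in each WT library and 11, 7 and 18 in INSL3-KI, was too low to be tested.

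At P23, INSL3-KO testis was compared with WT within the second table. The number called higher was 6 of 8 tested, with 0 lower. When scaled on Sertoli markers that direction turned for all 6, with 85 of all genes called higher and 13142 lower. Without that scaling 31.1% of 16732 genes were called higher and 33.4% lower. Gli1 had 2.24, 1.70 and 1.45 CPM in WT and 10.6, 10.7 and 10.2 CPM in INSL3-KO (log2 fold change 2.59, SE 0.19, edgeR adjusted p = 3.5e-07). Ptch1 had 21.4, 14.7 and 15.5 CPM in WT and 81.1, 84.4 and 87.1 CPM in INSL3-KO (2.34, SE 0.12, edgeR adjusted p = 3.1e-08). Dhh rose from 20.7, 25.4 and 23.9 CPM to 71.9, 75.3 and 77.1 CPM (1.73, SE 0.08, edgeR adjusted p = 1.2e-08). Smo, Gli3 and Gli2 rose by 2.05, 1.49 and 1.32 (edgeR adjusted p = 1.3e-08, 0.00065 and 0.00024), and Hhip, with between 13 and 24 counts in WT and between 52 and 70 in INSL3-KO, did not pass (1.04, SE 0.38, edgeR adjusted p = 0.026). All 6 calls held with any 1 library left out.

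INSL3-KI testis at P23 was set against the same WT libraries across the tables, and 6 of 8 members were called higher and 0 lower (8.81% and 11.8% of 16603 genes). Gli1 had 10.99, 7.92 and 14.1 CPM (2.62, SE 0.31, edgeR adjusted p = 0.0017). Ptch1 had 52.7, 49.4 and 91.7 CPM (1.92, SE 0.30, edgeR adjusted p = 0.0037). Gli2, Smo, Dhh and Hhip were the others called, and 0 of the 6 calls were left when any one of the WT libraries or INSL3-KI replicate 1 was left out. Over all genes, those fits called between 282 and 460 lower and between 90 and 318 higher, against 1966 and 1462 with every library. In FPKM, Dhh was at 5.24, 6.39 and 6.01 in WT and 13.2, 10.8 and 25.3 in INSL3-KI, and Hhip at 0.157, 0.217 and 0.179 against 0.322, 0.252 and 0.507. Between INSL3-KI and INSL3-KO at P23, edgeR called 0 members, where 25.2% of 16379 genes were called higher in INSL3-KI and 13% lower. At an unadjusted p under 0.05 there were 2 members, beside 11393 of the 16379 genes. DESeq2 called 1 member, Hhip, whose sign was opposite in FPKM, at -0.60 with limma on log2(FPKM + 1).

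**Figure D4:**
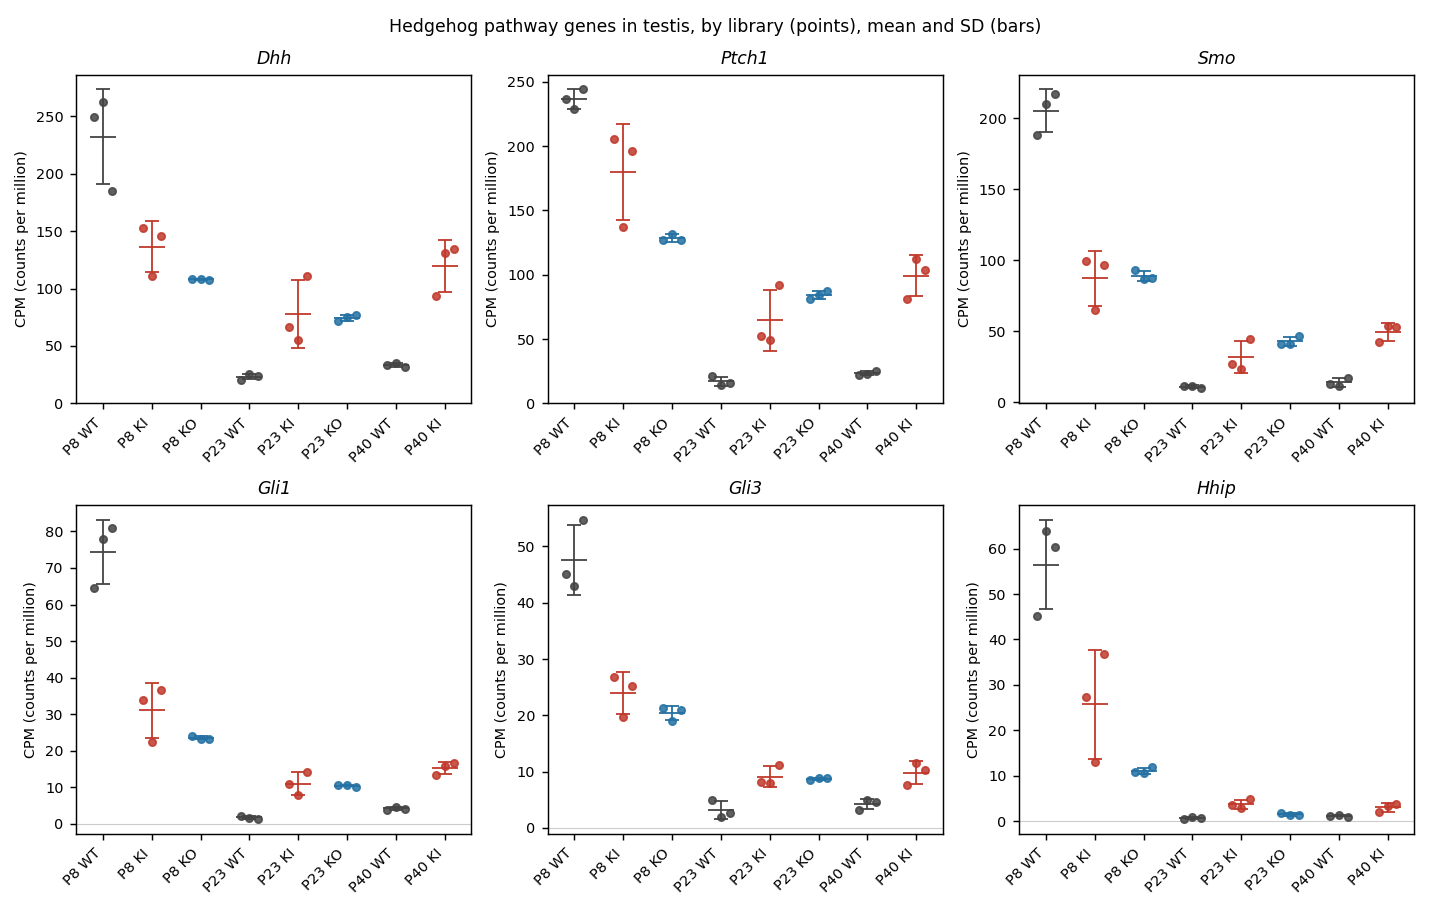
Levels of Dhh, Ptch1, Smo, Gli1, Gli3 and Hhip in testis, in CPM on the vertical axis, for the 8 groups on the horizontal axis. Points are libraries, and bars give the mean and SD of 3 libraries. In CPM, P8 WT is the highest group in each panel, and P23 and P40 WT are the lowest, under the mutants of their age; scaled on Sertoli markers, the P23 INSL3-KO and P40 INSL3-KI values lie below WT instead. Dhh and Hhip of INSL3-KO and P23 WT come from shorter gene models than those of the other groups, and in FPKM Hhip is higher in P8 INSL3-KO than in P8 WT.

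Markers of germ cells and somatic cells differed among these testes. Spermatid markers summed to between 10500 and 12700 CPM in P23 WT testis, between 34.9 and 458 CPM in INSL3-KI and between 12.4 and 14.1 CPM in INSL3-KO, and at P40 to between 6920 and 8550 CPM in WT and between 9.11 and 30.2 CPM in INSL3-KI. Sertoli markers were at 3230 to 3350 CPM in P23 WT and 14500 to 14800 CPM in INSL3-KO, and the INSL3-KI libraries overlapped WT at 3850, 2970 and 7610 CPM. At P40 they were at 2450 to 2710 CPM in WT and 7680 to 10800 CPM in INSL3-KI. Leydig markers, from cells that respond to Dhh, were at 903 to 926 CPM in P23 WT, 473 to 793 CPM in INSL3-KI and 2290 to 2340 CPM in INSL3-KO, and at 1070 to 1200 CPM in P40 WT and 1810 to 2090 CPM in INSL3-KI. Fibroblast markers were at 476 to 500, 1710 to 2330 and 2570 to 2650 CPM in the P23 groups, and at 343 to 813 CPM in P40 WT and 1470 to 2280 CPM in INSL3-KI. All genes of these lists were detected in each of these groups, and their part in the members' values was not tested. Scaled on the Sertoli list, all genes had a median of -2.62 in P23 INSL3-KO and of -2.07 in P40 INSL3-KI, and all 7 members named above then turned below WT, Dhh to -0.95 and -0.30, Ptch1 to -0.35 and -0.055 and Gli1 to -0.095 and -0.28. They stood above those medians by 1.68 and 1.76 (Dhh), 2.27 and 2.01 (Ptch1) and 2.53 and 1.78 (Gli1). In P23 INSL3-KI, where the median was -0.58, Dhh, Ptch1 and Gli1 stayed above WT at 0.95, 1.12 and 1.85, and 0 members were called.

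In WT testis, between P8 and P40, 8 of 9 members were called lower and 0 higher, where 27.8% of 16892 genes were called lower and 31.9% higher, and Gli1 fell from 74.5 ± 8.73 to 4.232 ± 0.4495 CPM (log2 fold change -4.18, SE 0.14, edgeR adjusted p = 1.2e-07). Hhip fell by 5.65, Smo by 3.93, Ptch1 by 3.39 and Dhh by 2.85 on the log2 scale (edgeR adjusted p = 1.4e-07, 5.1e-07, 4.9e-08 and 8.6e-07). Shh, at 0 counts in every P40 library, was at least 24.3-fold higher at P8 (edgeR adjusted p = 0.0065), a call lost without P8 replicate 2 or any one of the P40 libraries. Shh passed the filter on low counts only through the P8 libraries, so this was its only possible direction. Ihh did not pass (edgeR adjusted p = 0.040). Over the same ages spermatid markers went from at most 2.15 CPM to between 6920 and 8550 CPM, and Sertoli markers from between 4640 and 6110 to between 2450 and 2710 CPM. Scaled on the Sertoli list, with the median of all genes at 1.32, the fall was smaller, at -1.48 for Dhh, -2.04 for Ptch1, -2.58 for Smo, -2.83 for Gli1 and -4.30 for Hhip. The difference in the INSL3-KI effect between P40 and P8, tested as an interaction within the first table, passed for 7 members, all with a higher effect at P40, where 23.2% of 17354 genes were called higher and 22.5% lower. It was largest for Gli1 among these 7, at 3.02 (SE 0.30, edgeR adjusted p = 3e-05), and next for Smo, at 2.97 (SE 0.32, edgeR adjusted p = 4e-05). Scaled on the Sertoli list the differences kept their sign and 2 were called, Smo and Gli1, with the median of all genes at -1.72.

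Ordered by mean CPM, the testis groups ran alike for Smo, Gli1, Gli2 and Gli3, with P8 WT first, the other P8 groups next, then the P23 and P40 mutants, and P40 WT and P23 WT last. Among the Gli1 groups, P8 INSL3-KI (31.0 ± 7.53 CPM) overlapped the P8 libraries labelled INSL3-KO (23.5 ± 0.420), and P40 INSL3-KI (15.3 ± 1.76), P23 INSL3-KI (11.01 ± 3.10) and P23 INSL3-KO (10.48 ± 0.262) each overlapped the next (SD, n = 3). For Dhh the order is given in FPKM, since its gene model differed between the tables. It ran from P8 WT (60.3 ± 11.3) over P8 INSL3-KO (53.3 ± 0.777), P8 INSL3-KI (40.0 ± 7.89), P23 INSL3-KO (30.7 ± 1.28), P40 INSL3-KI (29.8 ± 7.39) and P23 INSL3-KI (16.4 ± 7.80) to P23 WT (5.88 ± 0.587) and P40 WT (5.18 ± 0.196). Neighbours overlapped except for both P8 mutants, and for P23 INSL3-KI and P23 WT. In gubernaculum Ptch1 ran from P8 INSL3-KI (94.0 ± 5.51 CPM) over P23 INSL3-KI, P8 INSL3-KO and P23 WT to P8 WT (24.1 ± 6.14), and the neighbours overlapped except for P8 INSL3-KO and P23 WT.

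**Figure D5:**
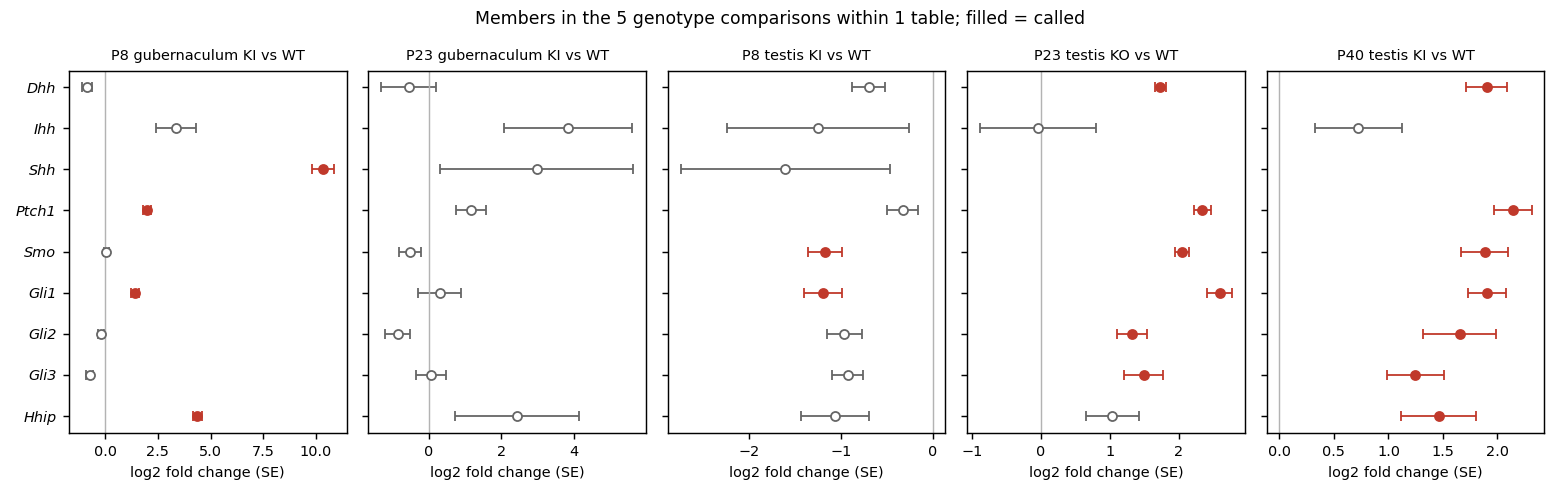
Log2 fold change with its SE (horizontal axis, with a scale of its own in each panel) of the 9 members (vertical axis) in the 5 comparisons of a mutant with WT that lie within 1 table. Filled points passed the threshold. The 4 filled points of P8 INSL3-KI gubernaculum and the 7 of P40 INSL3-KI testis lie right of 0 and the 2 of P8 INSL3-KI testis left of it; scaled on Sertoli markers, those of P23 and P40 testis lie left of 0, and Shh was too low to be tested in both. The fitted value of Shh in P8 gubernaculum rests on WT libraries with 0 to 2 counts and depends on the prior count.

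Of the 9 target genes tested in P40 testis, 7 were called higher in INSL3-KI and 0 lower (median 1.88), beside 25.6% and 22.1% of all genes, Ccnd2 with 2.53 and Mycn with 2.33 on the log2 scale among them (edgeR adjusted p = 0.00039 and 4e-04). The co-receptor genes Cdon, Boc, Gas1, Gpc3 and Mgrn1 were called higher. Among the 15 regulators inside the cell 4 were called higher and 4 lower, and of those lower Sufu, the gene of the main cytoplasmic inhibitor of GLI proteins, fell from a mean of 275 to 27.0 CPM and Stk36 from 301 to 26.3 CPM. In P23 INSL3-KO the 4 lists together had 19 of 38 genes called higher and 8 lower, beside 31.1% and 33.4% of all genes. In P8 INSL3-KI testis they had 0 of 40 higher and 3 lower (Evc, Evc2 and Ccnd2), beside 3.03% and 3.25%. With the Sertoli scaling above, directions in P23 and P40 testis are relative to the median of all genes only.

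Reads of some members may be shared with other genes. Dhh (chr15:98891152-98898540, minus strand, ENSMUSG00000023000) shares 3389 bases of its locus with Rhebl1 on the same strand, and the antisense genes 9530036O11Rik and Gm47200 share 8983 bases with Shh (chr5:28456815-28467256, minus strand, ENSMUSG00000002633) and 9584 bases with Gli1 (chr10:127329882-127341974, minus strand, ENSMUSG00000025407). Whether strand was used in counting is not given in the sources used here. The other members are Ihh (ENSMUSG00000006538, chr1:74945315-74951672, minus), Smo (ENSMUSG00000001761, chr6:29735503-29761365, plus), Gli2 (ENSMUSG00000048402, chr1:118834132-119053619, minus) and Gli3 (ENSMUSG00000021318, chr13:15463235-15730026, plus), all in GRCm38.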

How the data were processed

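RNA-seq was carried out on 39 libraries of gubernaculum and testis. Per the labels and methods, total RNA was extracted with TRIzol, libraries were made with an mRNA kit and sequenced as paired-end reads on an Illumina NovaSeq, and reads were aligned to GRCm38 with HISAT2 (version not given in the sources used here). The counting program, the annotation and the use of strand are not given in the sources used here. The authors deposited gene counts and FPKM in 2 tables, of 27 and 12 libraries. Counts are raw reads per gene, and the authors scaled FPKM to transcript length and library depth. The 21561 genes in both tables were used.

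The 9 members, the pathway lists and the marker lists were chosen with earlier results of these data known, and all 9 members are named. Some genes of the pathway lists are not reported here by name. Counts were tested with the quasi-likelihood test of edgeR 4.0.16 in R 4.3.3, with TMM factors and filterByExpr (minimum count 10, minimum total 15), on the libraries of the groups compared. P-values carry the Benjamini-Hochberg adjustment across every gene in the fit. The threshold for a call was an adjusted p under 0.01 together with a fold change of at least 2. SE values are the log2 fold change over the root of its F. CPM carry TMM factors within a tissue, and levels of different genes were compared in FPKM only. Where a group had at most 3 counts in each library, folds are bounds against 3 counts per library.

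Alternatives were DESeq2 1.42.0, library size only, no filter on low counts, 1 fit over each tissue's groups (over all 39 libraries between tissues), a replicate block, limma 3.58.1 on log2(FPKM + 1) and log2(FPKM + 0.1), scaling on 14 Sertoli genes in testis, and each library left out in turn. Replicates of a group differed by far more than sampling noise (chi-square per gene from 4.17 to 869 in 39 pairs). P-values set the difference between groups against the spread among the libraries within a group. Tests were tested on simulated data. Sequences came from the RefSeq promoter table (GRCm38.p6, 7 of 9 members matched) and positions from GENCODE M21, read with Python 3.11.15.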

Additional observations from a re-analysis of the deposited data

Results flagged for a closer look

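The INSL3-KI effect in testis differed between P40 and P8 by the test of the interaction for 7 members (edgeR adjusted p at most 0.0032). The log2 difference was 2.52 for Dhh, 2.39 for Ptch1, 2.97 for Smo, 3.02 for Gli1, 2.54 for Gli2, 2.10 for Gli3 and 2.45 for Hhip, higher at P40 in each, and with Sertoli scaling it kept its sign.

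In further pairs of comparisons all mutant libraries lay above all WT libraries in one and below them in the other, and these differences were not tested. Between P23 and P8 INSL3-KI testis the log2 fold changes were 1.74 and -0.70 for Dhh, 1.92 and -0.33 for Ptch1, 1.58 and -1.17 for Smo, 2.62 and -1.19 for Gli1, 1.82 and -0.96 for Gli2, 1.51 and -0.93 for Gli3, and 2.34 and -1.06 for Hhip. Between P23 INSL3-KO testis and the P8 testis libraries labelled INSL3-KO they were 1.73 and -1.08 for Dhh, 2.34 and -0.85 for Ptch1, 2.05 and -1.18 for Smo, 2.59 and -1.64 for Gli1, 1.32 and -1.13 for Gli2, 1.49 and -1.20 for Gli3, and 1.04 and -2.33 for Hhip. The P23 values of INSL3-KO turned below 0 with Sertoli scaling. With limma on log2(FPKM + 1), the P8 values of Dhh and Hhip in these libraries were -0.16 and 0.14, and the P23 INSL3-KI values of Dhh and Hhip, which also cross the tables, were 1.26 and 0.20.

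Between P8 gubernaculum and P8 testis the INSL3-KI fold changes were 2.002 and -0.33 for Ptch1, 1.41 and -1.19 for Gli1, and 4.37 and -1.06 for Hhip. For INSL3-KO they were 1.33 and -0.85 for Ptch1 and 2.96 and -2.33 for Hhip, and the testis value of Hhip was not below 0 in FPKM.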

How the results depend on the processing

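With 1 fit over each tissue's groups, the members called numbered 1 in P8 INSL3-KI gubernaculum (1198 of all genes lower and 1323 higher). They numbered 2 in INSL3-KO (1927 and 1526) and 0 between these mutants (1112 and 1204). In P8 INSL3-KI testis they numbered 4 (1203 and 958). They numbered 1 between the mutant testes at P8 (223 and 546) and at P23 (2629 and 4822), and 2 between the ages of WT gubernaculum (584 and 781). DESeq2 gave 1, 1 and 2 for these last 3 (259 and 647, 2588 and 4566, and 1141 and 1434 of all genes). P8 INSL3-KI testis had 0 with library size only (315 of all genes lower and 607 higher), with the replicate block (1 and 5) and with limma on log2(FPKM + 1) (277 and 469). It had 4 with Sertoli scaling (1241 and 230). Limma on log2(FPKM + 1) gave 2 in the P8 testis libraries labelled INSL3-KO (663 of all genes lower and 828 higher). It gave 3 in P23 INSL3-KI testis (1413 and 2161) and 4 in P40 INSL3-KI testis (2518 and 5198). Sertoli scaling gave 0 in P23 INSL3-KI testis (400 of all genes lower and 101 higher) and 0 in P40 INSL3-KI testis (11691 and 31). Between the P23 mutant testes it gave 7, all higher in INSL3-KI. There 9379 of all genes were called higher and 68 lower, with a median of 1.77. For the testis interaction Sertoli scaling gave 2 (8886 of all genes lower and 454 higher). It turned P23 INSL3-KO testis to -0.95 (Dhh), -0.35 (Ptch1), -0.63 (Smo), -0.095 (Gli1), -1.37 (Gli2), -1.21 (Gli3) and -1.63 (Hhip), P40 INSL3-KI testis to -0.30, -0.055, -0.31, -0.28, -0.52, -0.95 and -0.76 for the same genes, and the P23 difference between INSL3-KI and INSL3-KO to 1.25 (Ptch1) and 1.20 (Smo). In FPKM, Hhip turned to -1.17 and -1.31 between the P8 gubernaculum mutants (pseudocounts 1 and 0.1), to 0.14 and 0.15 in the P8 testis libraries labelled INSL3-KO, and to -1.37 between the P23 mutant testes (pseudocount 0.1). Same-numbered replicates did not deviate together (0 of 14 comparisons had all 3 correlations over 0.1). The replicate block left 3 calls in P23 INSL3-KI testis (1087 of all genes lower and 511 higher). With 1 library left out, members called ran from 4 to 5 in P8 INSL3-KI gubernaculum, 3 to 5 in INSL3-KO, 2 to 2 between them, 0 to 0 at P23, 0 to 0 in P8 INSL3-KI testis, 5 to 6 in the P8 libraries labelled INSL3-KO, 0 to 1 between these mutants (1 without INSL3-KI replicate 2 or 3), 0 to 7 in P23 INSL3-KI, 6 to 6 in P23 INSL3-KO, 0 to 0 between them, 4 to 7 in P40 INSL3-KI, 4 to 5 between the WT tissues, 0 to 1 and 7 to 9 between the ages of WT gubernaculum and testis, and 0 to 0 and 7 to 8 for the gubernaculum and testis interactions. Where not stated, the cause was not tested. With all replicates kept, 935 values stayed on their side of the threshold, 49 of them changing sign without a call, 58 lost a call, 29 gained one and 21 reversed with a call on either side. In P23 and P40 testis, Shh counts of at most 18 and Ihh counts of at most 36 limit any statement on them.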
